A study of Bos taurus with 8 samples.

Results

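A set of 9 genes of cholesterol synthesis and of its transcriptional control was followed in bovine blastocysts exposed to a radical generator: HMGCS1, IDI1, FDPS, FDFT1, SQLE, LSS, DHCR7, INSIG1 and SREBF2. Every array probe whose annotated gene symbol was one of these 9 was taken, which gave 20 of 43794 probes and 9 of 15227 annotated symbols. Probes were taken by name alone, and the 9 genes were chosen with earlier results of these data known. Expression was measured in 4 pools of AAPH-treated blastocysts and 4 pools of control blastocysts (labelled Control-Oxid), with 10 embryos in each pool. Embryos were made in vitro from oocytes of slaughterhouse ovaries and collected 196 hours after fertilization. All were cultured in synthetic oviduct fluid (SOF). The AAPH pools had 0.01 mM AAPH, a compound that releases peroxyl radicals, in the medium from day 3 to day 5 and in the renewed medium from day 5 to day 7, and the control pools had the same media without it. A pool mixes whole embryos, so trophectoderm and inner cell mass were not separated, and fewer cells of a type cannot be told apart from less RNA per cell.

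RNA from each pool was amplified, labelled with Cy3 or Cy5, and hybridised on 8 two-colour arrays, 4 with AAPH RNA in Cy5 and 4 with AAPH RNA in Cy3. Arrays of opposite orientation were averaged as 4 swap pairs, each taken to hold 1 AAPH pool and 1 control pool. The labels do not give these pairs, which were inferred from the arrays' own values. Every ratio below is the log2 of AAPH over control. Swap pairs 1 and 2 lay on slide 26, and swap pairs 3 and 4 on slides 78 and 79. The number of probes per array with signal above background was 17297 to 34802 for AAPH and 15957 to 36066 for control. It differed by slide and dye. On slide 26 it was 30967 to 36066 over both RNAs. On slides 78 and 79 it was 15957 to 22399 for the RNA in Cy5 and 28364 to 30521 for the RNA in Cy3. The labels do not state whether pools stem from different fertilization runs, and the p-values therefore cover only the variation among the pools at hand. Trophectoderm markers were present, with 11 of 11 listed genes measured, and 6 of 7 listed inner cell mass markers were measured, the other having no probe under that name.

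Cholesterol is built from acetyl-CoA through mevalonate and farnesyl diphosphate, which is condensed to squalene, closed to lanosterol and trimmed to cholesterol. When membranes of the endoplasmic reticulum are short of sterol, the protein SCAP carries the precursor of SREBP2, the SREBF2 product, to the Golgi, where it is cut and released to activate the genes of the pathway. Sterol makes INSIG proteins hold SCAP back, and INSIG1 is itself a target gene, so the transcripts of the enzymes and of INSIG1 are commonly read together as a gauge of this control.

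No probe of the 9 genes passed the test between AAPH and control blastocysts. Of the 20 probes 19 were measured, meaning above background on at least 4 of 8 arrays for either treatment. None of the 19 had an adjusted p under 0.05 (limma, Benjamini-Hochberg over 32931 probes), and the share called among all measured probes was 0%, with a lowest adjusted p of 0.146. At an unadjusted p under 0.05 there was 1 of 19, a SREBF2 probe that was lower in AAPH, beside 13.4% of all measured probes (5.68% higher and 7.75% lower). Fits that count the 8 arrays singly called 2.82% of all measured probes, or 0.969% and 0.583% with the swap pair or the slide as a random block, and again 0 of the 19. The mean ratios of the 19 lay between -0.36 and 0.19, and their median was -0.09, beside 0.00 over all measured probes. A mean below 0 was found for 14 of the 19, beside 49.8% of all measured probes. HMGCS1, FDPS, INSIG1 and SREBF2 each had more than 1 of the 14, and probes of 1 gene share a target. By brightest probe the median of the 9 genes was -0.05, beside 0.01 over 12606 genes. AAPH and control pools overlapped in level for all 19, while 1.93% of all measured probes did not overlap.

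HMGCS1, which makes HMG-CoA at the entry of the mevalonate pathway, had 4 probes. The brightest, EMBV3_14732, was at 14.64, 14.38, 14.80 and 14.17 in the AAPH pools of swap pairs 1 to 4, against 14.57, 14.78, 14.65 and 14.72 in the control pools (log2 signal). The AAPH pools spanned both the highest and the lowest of the 8 values, and the control pools lay between. Its ratio was -0.18 ± 0.34 (SD, n = 4 swap pairs), with a 95% interval of -0.50 to 0.13 (limma adjusted p = 0.576). Probe EMBV3_08646 was at 10.55, 9.74, 9.13 and 8.56 in the AAPH pools, against 10.56, 10.36, 9.06 and 9.44 in the control pools. Swap pairs 2 and 4 were lower in AAPH, by -0.63 and -0.88, and pairs 1 and 3 were near 0, at -0.01 and 0.07. The mean of this probe was -0.36 ± 0.47, the lowest of the 19 (limma adjusted p = 0.422). Both HMGCS1 probes thus had their lower AAPH values in the same swap pairs. The dimmer probes EMBV3_28348 and EMBV3_24024 had ratios of 0.01 ± 0.12 and -0.10 ± 0.23. EMBV3_24024 exceeded background in only 4 AAPH and 5 control channels, of 8 each.

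IDI1, the isomerase that supplies dimethylallyl diphosphate, had the highest mean ratio of the 19 probes. Its level was 11.93, 12.20, 12.54 and 11.60 in the AAPH pools, against 11.99, 12.31, 11.83 and 11.38 in the control pools. The AAPH pool of swap pair 3 was the highest of the 8, and pairs 1 and 2 were slightly lower in AAPH. The ratio was 0.19 ± 0.38, with a 95% interval of -0.15 to 0.53 (limma adjusted p = 0.595). Without swap pair 3 it was 0.02.

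FDPS, which makes farnesyl diphosphate, had 4 measured probes with mean ratios close to 0. The brightest, EMBV3_00234, was at 13.28, 13.71, 12.71 and 12.15 in the AAPH pools, against 13.44, 13.45, 12.38 and 12.18 in the control pools. Its ratio was 0.10 ± 0.23 (limma adjusted p = 0.686). The other probes, EMBV3_20910, EMBV3_41875 and EMBV3_26185, had ratios of -0.08 ± 0.16, -0.09 ± 0.09 and -0.12 ± 0.09. The sign thus differed between the brightest probe and the rest, and the 95% intervals of all 4 held 0. Within both treatments the pools of swap pairs 1 and 2 were about 1 log2 unit above those of pairs 3 and 4 at the brightest probe, with a difference between the slide sets of -1.11 (slides 78 and 79 minus slide 26).

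**Figure D1:**
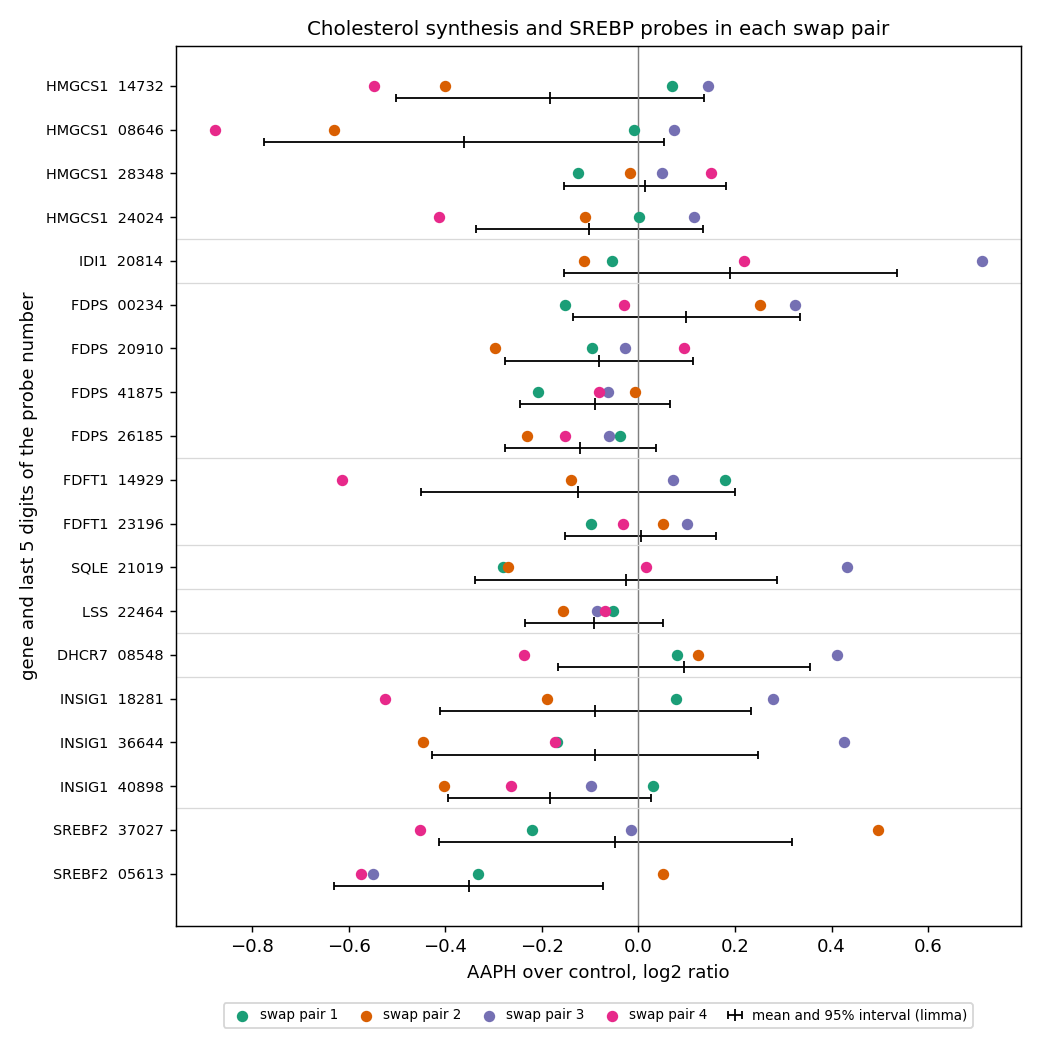
Log2 ratio of AAPH over control (horizontal axis) for the 19 measured probes of the 9 genes (vertical axis, gene and last digits of the probe number). Points are the 4 swap pairs, and the bar under them is limma's mean with its 95% interval. The interval holds 0 for 18 of the 19 probes, the exception being SREBF2 EMBV3_05613 at -0.35.

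In the branch from farnesyl diphosphate to cholesterol, FDFT1, SQLE, LSS and DHCR7 had 5 measured probes, all with 95% intervals that held 0. FDFT1, the squalene synthase, was at 12.12, 12.45, 11.59 and 10.68 in the AAPH pools, against 11.94, 12.59, 11.52 and 11.30 in the control pools at its brighter probe EMBV3_14929. The AAPH pool of swap pair 4 was the lowest of the 8, and the other AAPH pools lay within 0.2 of their control partners. The ratio was -0.13 ± 0.35 (limma adjusted p = 0.712), and 0.04 without swap pair 4. The dim FDFT1 probe EMBV3_23196 had a ratio of 0.00 ± 0.09.

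SQLE, the squalene epoxidase and an oxygen-dependent control point of the pathway, was at 12.08, 11.91, 12.44 and 11.31 in the AAPH pools, against 12.36, 12.18, 12.01 and 11.30 in the control pools. It was lower in AAPH in swap pairs 1 and 2 (-0.28 and -0.27), higher in pair 3 (0.43) and at 0.02 in pair 4. The mean was -0.03 ± 0.33, and the 95% interval of -0.34 to 0.29 corresponds to 0.791-fold to 1.22-fold (limma adjusted p = 0.953).

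LSS, which closes squalene epoxide to lanosterol, was close to background. It exceeded background in 4 AAPH and 5 control channels, with levels of 7.09, 6.76, 6.82 and 6.62 in the AAPH pools, against 7.14, 6.92, 6.91 and 6.69 in the control pools. All 4 swap pairs were slightly lower in AAPH, and the mean was -0.09 ± 0.05 (limma adjusted p = 0.54). The same sign in all 4 pairs was found for 3 of the 19 probes on the lower side (LSS and FDPS EMBV3_41875 and EMBV3_26185), beside 10.6% of all measured probes, and for 0 on the higher side, beside 11.6%.

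DHCR7, the reductase of the last step to cholesterol, exceeded background in 8 AAPH and 7 control channels. It was at 8.27, 8.44, 7.97 and 7.64 in the AAPH pools, against 8.19, 8.32, 7.56 and 7.88 in the control pools. It was higher in AAPH in swap pairs 1 to 3 and lower in pair 4, with a mean of 0.09 ± 0.27 (limma adjusted p = 0.733). Without swap pair 3 the mean was -0.01.

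**Figure D2:**
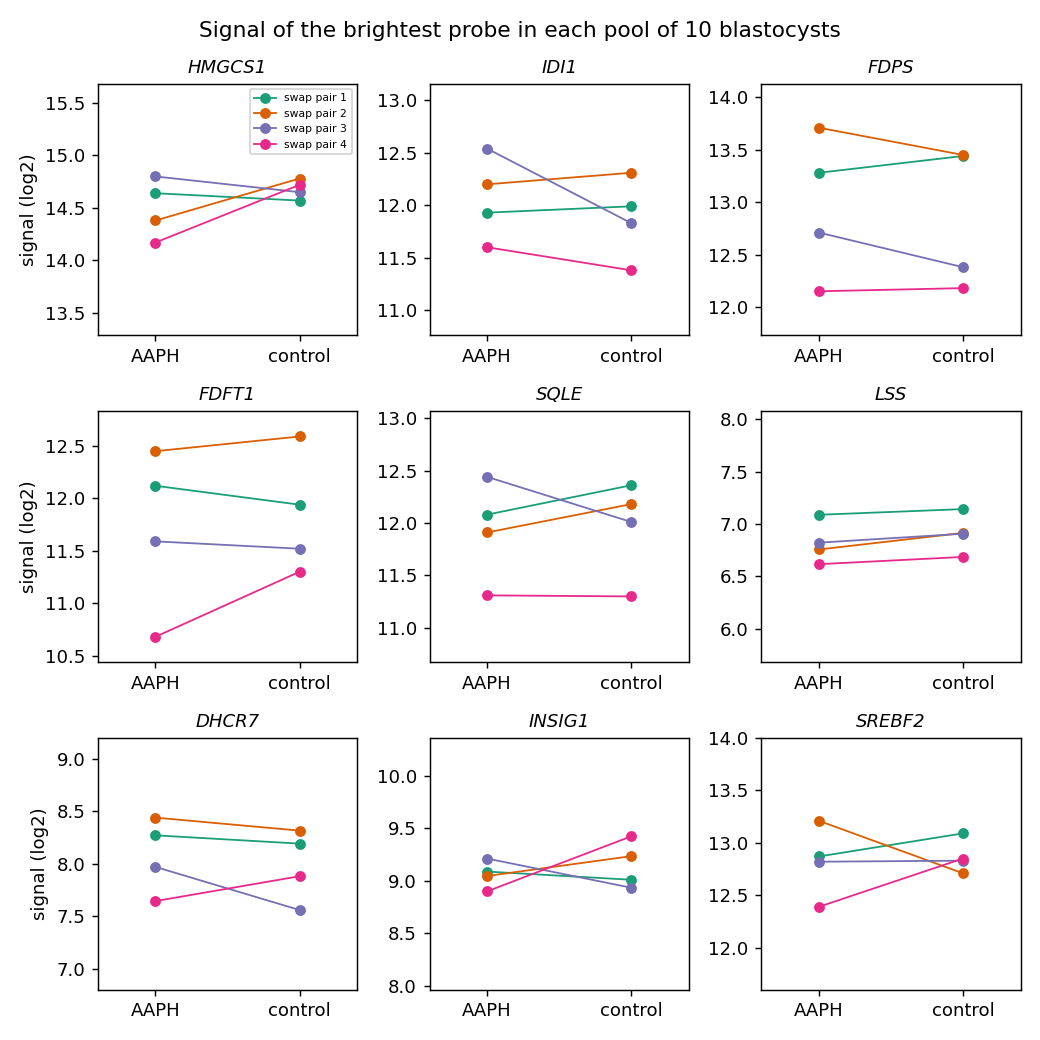
Log2 signal of the brightest measured probe of each of the 9 genes in the 4 AAPH pools and the 4 control pools. Lines join the pools of a swap pair, and every panel spans the same range of log2 units, so slopes can be compared but heights cannot be compared between genes. For FDPS the pools of swap pairs 1 and 2 lie above those of pairs 3 and 4 in both treatments, and for FDFT1 the AAPH pool of swap pair 4 is the lowest at 10.68.

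Among the control genes, INSIG1 had 3 measured probes, none of which separated the treatments. At EMBV3_18281 the level was 9.09, 9.05, 9.21 and 8.90 in the AAPH pools, against 9.01, 9.23, 8.93 and 9.42 in the control pools. The ratio was -0.09 ± 0.35 (limma adjusted p = 0.802). The ratio of this probe differed by dye orientation, at -0.22, -0.56, -0.13 and -0.96 on the arrays with AAPH in Cy5 and 0.37, 0.18, 0.69 and -0.08 on those with AAPH in Cy3. In all 4 pairs the Cy5 array was lower. Probe EMBV3_36644 had a ratio of -0.09 ± 0.37, with -0.45 in swap pair 2 and 0.43 in pair 3. Probe EMBV3_40898 was at -0.18 ± 0.19 (limma adjusted p = 0.419), lower in AAPH in 3 of 4 pairs. All 3 probes were lower in AAPH in swap pairs 2 and 4, and they differed in sign in pairs 1 and 3.

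SREBF2, the gene of SREBP2 itself, had a pair of bright probes with different means. Probe EMBV3_05613 was at 11.71, 12.45, 11.62 and 11.94 in the AAPH pools, against 12.04, 12.40, 12.17 and 12.51 in the control pools. AAPH was lower in swap pairs 1, 3 and 4 and level in pair 2, where the ratio was 0.05. The mean was -0.35 ± 0.29, a fold of 0.784 (95% interval 0.646 to 0.951), with an unadjusted p of 0.0212 and an adjusted p of 0.301 (limma). Probe EMBV3_37027 was at 12.87, 13.21, 12.82 and 12.39 in the AAPH pools, against 13.09, 12.71, 12.83 and 12.85 in the control pools. Its ratio was -0.05 ± 0.40 (limma adjusted p = 0.918), and swap pair 2, at 0.50, was the opposite of pair 4, at -0.45. The other SREBF2 probe, EMBV3_33652, exceeded background in 2 AAPH and 2 control channels and was not tested. The transcripts that each SREBF2 probe matches were not analysed here.

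The 9 genes did not move alike from 1 swap pair to the next. Taking the brightest probe of each gene, 4 were higher and 5 lower in AAPH in swap pair 1, 3 higher and 6 lower in pair 2, 7 higher and 2 lower in pair 3, and 2 higher and 7 lower in pair 4. The medians over the 9 genes were -0.05, -0.14, 0.28 and -0.24 in pairs 1 to 4. Over all 4 pairs the median of the 9 genes was -0.05, beside 0.01 over 12606 genes. Probes above 0 numbered 6, 5, 12 and 4 of 19 in pairs 1 to 4, beside 51.2%, 49.8%, 51.8% and 47.4% of all measured probes. Ratios of at least 1.5-fold were few. In swap pair 1 there were 0 of the 19 (1.76% of all measured probes were higher and 1.01% lower). In pair 2 HMGCS1 EMBV3_08646 was lower (1.99% higher and 1.77% lower among all), and in pair 3 IDI1 was higher (1.93% higher and 1.9% lower among all). In pair 4 HMGCS1 EMBV3_08646 and FDFT1 EMBV3_14929 were lower (2.51% higher and 2.86% lower among all).

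The spread between swap pairs was wide for these genes. The SD over the 4 pairs had a median of 0.266 over the 19 probes, beside 0.158 over all measured probes. Dim probes have compressed ratios, so the comparison was repeated among the 13675 probes above background on all 8 arrays in both RNAs. There the 13 probes of the 9 genes had a median SD of 0.342, with a range of 0.085 to 0.466, beside 0.232 for all. The difference in spread was not tested.

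The pairing itself was picked for the correlation between arrays, so agreement within a pair was partly selected for and is given as a description. Both arrays of a swap pair gave the same sign for 43 of 76 values of the 19 probes (56.6%), beside 50.7% of the values of all measured probes. The count was 10, 15, 8 and 10 of 19 in swap pairs 1 to 4, beside 50.7%, 56.4%, 43.8% and 51.8% of all measured probes. HMGCS1 EMBV3_08646 in swap pair 4 was at -0.999 with AAPH in Cy5 and -0.757 with AAPH in Cy3. IDI1 in swap pair 3 was at 0.65 and 0.77 in the same order of dyes, and FDFT1 EMBV3_14929 in pair 4 at -0.65 and -0.57. Each of these had the same sign on both arrays. FDPS EMBV3_00234 in pair 3 was at -0.18 and 0.82, so its pair mean of 0.32 rested on 1 array.

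**Figure D3:**
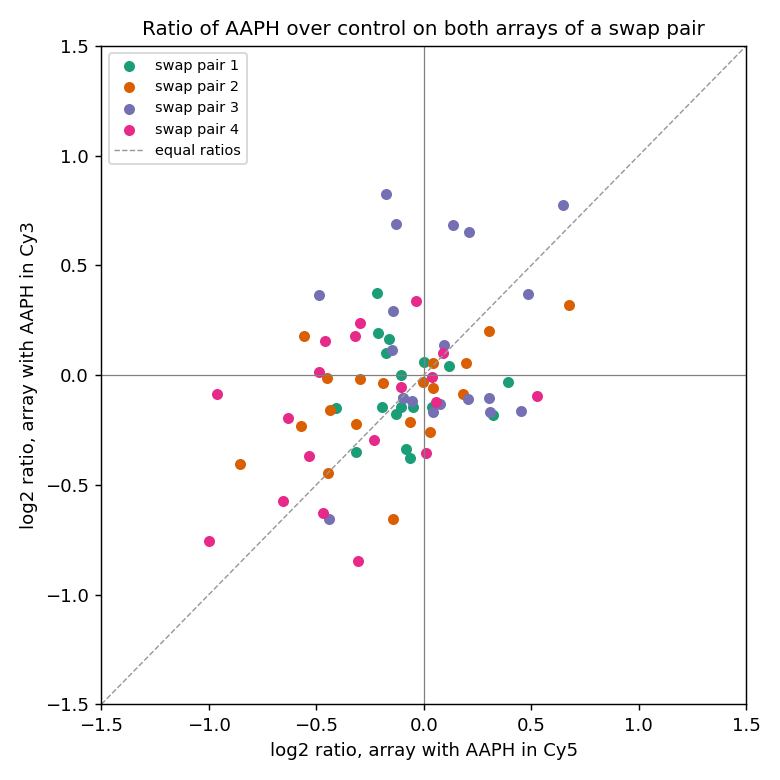
Log2 ratio of AAPH over control on the array with AAPH in Cy5 (horizontal axis) and on the array with AAPH in Cy3 (vertical axis) for the 19 measured probes in each of the 4 swap pairs. Points on the dashed line have equal ratios in both dye orientations, and 43 of 76 points lie in the quadrants of equal sign.

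The effect of AAPH was also compared between the slide sets. No probe differed between them after adjustment (0%, limma, smallest adjusted p = 0.362), and 9.95% of all measured probes had an unadjusted p under 0.05, as had 3 of the 19. IDI1 had a ratio of 0.46 on slides 78 and 79, against -0.08 on slide 26 (difference 0.55, limma adjusted p = 0.467). SQLE had 0.22 on slides 78 and 79, against -0.27 on slide 26 (difference 0.50, limma adjusted p = 0.466). SREBF2 EMBV3_05613 had -0.56 on slides 78 and 79, against -0.14 on slide 26 (difference -0.42, limma adjusted p = 0.499). Each slide set held 2 swap pairs, and slide cannot be told apart from the pools it carried.

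Levels differed more between slide sets than between treatments for part of the genes. Arrays of slides 78 and 79 also had fewer probes above background than those of slide 26. The part of this in the level differences was not tested. For 7 of the 19 probes all 4 pools on slide 26 were above all 4 pools on slides 78 and 79, beside 9.59% of all measured probes, and for 0 all were below, beside 11.1%. The 7 were the 4 probes of FDPS, HMGCS1 EMBV3_08646, FDFT1 EMBV3_14929 and DHCR7. The 4 FDPS probes share a target and are not separate observations. The dim FDFT1 probe EMBV3_23196 was not among the 7, at 7.45 on slides 78 and 79 and 7.54 on slide 26. The mean level of HMGCS1 EMBV3_08646 was 9.05 on slides 78 and 79 and 10.30 on slide 26, and that of FDFT1 EMBV3_14929 was 11.27 on slides 78 and 79 and 12.28 on slide 26. DHCR7 was at 7.76 on slides 78 and 79 and 8.30 on slide 26. HMGCS1 EMBV3_14732, the brightest probe of its gene, was at 14.59 on both, and INSIG1 EMBV3_18281 at 9.12 on slides 78 and 79 and 9.09 on slide 26. Probes of HMGCS1 thus differed in this, and the cause was not tested. The highest spot median of EMBV3_14732 was 35820, under the scan ceiling, and other limits on bright signals were not tested.

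Across the 8 pools every enzyme correlated more highly with the joint mean of the 9 genes than INSIG1 did. The mean of the standardized levels of the 9 genes was 0.39, 0.41, 0.34 and -1.44 in the AAPH pools, against 0.49, 0.64, -0.39 and -0.45 in the control pools. The AAPH pool of swap pair 4 was thus the lowest. The correlation of each gene with this mean was 0.91 for FDFT1, 0.84 for FDPS, 0.82 for DHCR7, 0.81 for SQLE, 0.72 for IDI1, 0.69 for SREBF2, 0.68 for LSS, 0.60 for HMGCS1 and 0.30 for INSIG1. These are descriptions over 8 pools, of which the pools of a swap pair share arrays, and each gene is part of the mean it was set against. Among 12597 other genes, those most like the mean were AGER (r = 0.955), SLC26A5, TMBIM1B and LOC100336777 (r = 0.95 each) and HARS (r = 0.937). An r of at least 0.9 was reached by 0.167% of genes, and the median was -0.01. The AAPH over control ratios of these 5 genes lay between -0.07 and 0.05.

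The rest of the pathway did not pass the test either. In the mevalonate branch 8 genes were measured, 4 higher and 4 lower in AAPH, with 0 called, 0 at an unadjusted p under 0.05 and a median ratio of -0.01. The others named there were PMVK, the phosphomevalonate kinase, at 0.09 ± 0.13 (other probe -0.02), ACAT2, the acetoacetyl-CoA thiolase, at -0.09 ± 0.27 (other probe -0.21), and MVD, the mevalonate diphosphate decarboxylase, at -0.03 ± 0.13.

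From squalene to cholesterol 12 genes were measured, 5 higher and 7 lower, with 0 called and a median of -0.06. At an unadjusted p under 0.05 there were 1 higher and 1 lower, beside 15% of 12606 genes in either direction. HSD17B7, a ketosteroid reductase of C4 demethylation, was at 9.99, 10.38, 11.17 and 10.03 in the AAPH pools, against 9.93, 9.89, 10.67 and 9.74 in the control pools. It was higher in AAPH in 4 of 4 pairs, at 0.33 ± 0.21 (limma adjusted p = 0.256). EBP, the sterol isomerase, was at -0.25 ± 0.24 (limma adjusted p = 0.362), and LBR, a nuclear membrane protein with sterol reductase activity, at -0.20 ± 0.19 (limma adjusted p = 0.387). The next genes of the same branch thus had means of both signs.

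Among the genes of SREBP control 13 were measured, 7 higher and 6 lower, with 0 called, a median of 0.01, and 2 higher and 2 lower at an unadjusted p under 0.05, beside 15% of 12606 genes. SREBF1, the gene of SREBP1, was at 10.23, 9.65, 9.73 and 9.53 in the AAPH pools, against 10.08, 10.02, 10.26 and 10.13 in the control pools. It was lower in AAPH in swap pairs 2, 3 and 4 and higher in pair 1, with a mean of -0.34 ± 0.34 (limma adjusted p = 0.354). RNF139, a ubiquitin ligase that binds INSIG proteins, was at 0.32 ± 0.27, and MBTPS1, the protease that makes the first cut of SREBP, was at 0.24 ± 0.13, both higher in 4 of 4 pairs (limma adjusted p = 0.31 and 0.276). UBE2G2, a ubiquitin-conjugating enzyme of endoplasmic reticulum degradation, was at -0.28 ± 0.17 (limma adjusted p = 0.271), lower in 4 of 4 pairs, and its other probe was at -0.06. The other probe of MBTPS1 was at 0.07. INSIG2 was at 0.08 ± 0.22, with its other probe at 0.24, and SCAP, with signal above background in 3 AAPH and 4 control channels, was at -0.05 ± 0.07.

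**Figure D4:**
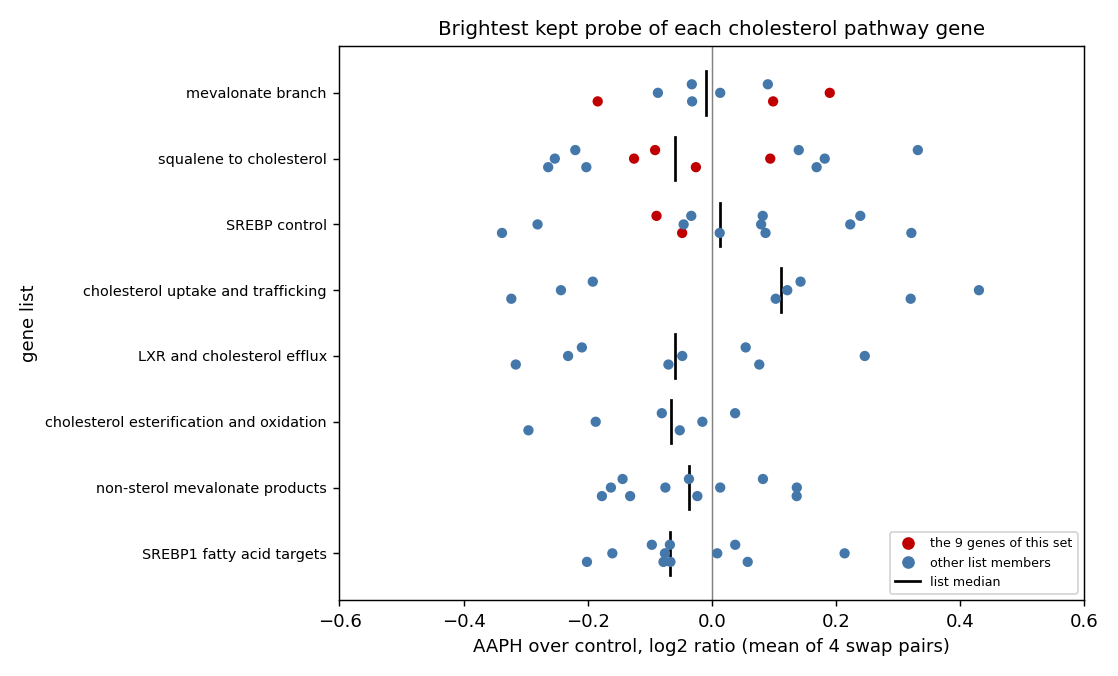
Mean log2 ratio of AAPH over control (horizontal axis) of the brightest measured probe of each gene in 8 gene lists (vertical axis). Red points are the 9 genes described here, blue points the other list members, and the black line is the list median. The medians lie between -0.07 and 0.11.

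Outside synthesis, 8 genes of cholesterol uptake and trafficking were measured, 5 higher and 3 lower, with 0 called, a median of 0.11 and 2 higher and 1 lower at an unadjusted p under 0.05, beside 15% of 12606 genes. NPC1, which exports cholesterol from lysosomes, was at 7.80, 7.62, 8.04 and 7.92 in the AAPH pools, against 8.18, 7.88, 8.37 and 8.25 in the control pools. Its ratios in swap pairs 1 to 4, -0.37, -0.26, -0.33 and -0.33, were close to each other, and the mean was -0.32 ± 0.05 (limma adjusted p = 0.174). LIPA, the lysosomal acid lipase that frees cholesterol from its esters, was higher in 4 of 4 pairs at 0.43 ± 0.27 (limma adjusted p = 0.236). VLDLR, a lipoprotein receptor with signal above background in 7 AAPH and 5 control channels, was higher in 4 of 4 pairs at 0.32 ± 0.16 (limma adjusted p = 0.23). NPC1 and LIPA act on the same lysosomal cholesterol, and their ratios had opposite signs in every swap pair. Both were named for a small p in this list, which favours 1 sign in all pairs for each gene. The constancy of their signs was thus partly selected for, and the contrast is given as a description.

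Among 8 measured genes of LXR and cholesterol efflux 3 were higher and 5 lower, with 0 called and a median of -0.06, and 1 higher and 2 lower at an unadjusted p under 0.05, beside 15% of 12606 genes. The median was -0.21 when detection was required in all 8 channels of AAPH or of control RNA. LPCAT3, a phospholipid acyltransferase, was lower in 4 of 4 pairs at -0.32 ± 0.12 (limma adjusted p = 0.202). MYLIP, the ubiquitin ligase that degrades lipoprotein receptors, was higher in 4 of 4 pairs at 0.25 ± 0.13 (limma adjusted p = 0.274). NR1H3, the gene of LXR alpha, was at -0.21 ± 0.17, with its other probe at -0.36.

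The remaining lists were esterification and oxidation of cholesterol (1 higher and 5 lower, median -0.07), non-sterol products of mevalonate (4 higher and 7 lower, median -0.04) and fatty acid targets of SREBP1 (4 higher and 7 lower, median -0.07), with 0 called in each, and 1, 1 and 0 lower at an unadjusted p under 0.05, beside 15% of 12606 genes. Their named genes lay between -0.30 and 0.21. NCEH1, a cholesterol ester hydrolase, was at -0.30 ± 0.33 with its other probes at 0.11 and 0.24. LCAT was at -0.19 ± 0.15 with its other probes at 0.01 and 0.06, and CYP27A1 was at -0.08 ± 0.18. PDSS1, for the side chain of coenzyme Q, was at -0.16 ± 0.10, NUS1, for dolichol, at -0.13 ± 0.14, and FNTA, a farnesyltransferase subunit, at 0.14 ± 0.19. Malic enzyme ME1 was at 0.21 ± 0.23 and the desaturases FADS1 and FADS2 at -0.16 ± 0.25 (other probe of FADS1 -0.10) and -0.20 ± 0.45.

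Markers of other cells were set beside these values. Among all 12606 genes 15% had an unadjusted p under 0.05, and 47.8% were lower in AAPH. Of 10 listed fibroblast markers 9 were measured, and FBLN1 was not above background often enough to be measured. All 9 measured fibroblast markers were higher in AAPH, with a median of 0.75 and 0 called (8 at an unadjusted p under 0.05). Their summed level was 12.57 to 15.15 in the AAPH pools, against 12.22 to 13.35 in the control pools, and their medians in swap pairs 1 to 4 were 1.46, 0.95, 0.65 and 0.25. The 9 genes' medians in the same pairs were -0.05, -0.14, 0.28 and -0.24. Of 11 listed cumulus and granulosa markers 9 were measured, with AMH and FOXL2 not measured. Of these 9, 8 were higher in AAPH and 2 had an unadjusted p under 0.05, with a median of 0.14. Their summed levels were 10.92 to 12.01 in the AAPH pools, against 10.91 to 11.31 in the control pools. The part of these markers in the ratios of the 9 genes was not tested. Trophectoderm, inner cell mass and hypoblast markers had medians of -0.09, -0.07 and 0.12, with 1 of 11, 2 of 6 and 4 of 5 higher in AAPH. At an unadjusted p under 0.05 there were 1, 1 and 2 of them.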

How the data were processed

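The deposited scanner files give, per the file headers, a linear intensity for each spot and for its local background at both dye wavelengths. A deposited table holds the authors' log2 ratios for these arrays. Per the submitters' processing notes limma was used, with no version given. Set against the scanner ratios, the table's slopes were 0.943 to 0.99 and its correlations 0.967 to 0.994, so the table's scale is log2 and its direction AAPH over control. Its medians on arrays 1 to 8 were -0.0135, -0.00863, 0.0117, 0.00944, -0.0152, 0.00799, -0.0188 and -0.0197; its normalization and centring are unknown, and it served as an alternative.

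In R 4.3.3 with limma 3.58.1, normexp (offset 50) was applied to mean foreground and median background, and each array was normalized by loess with control spots at weight 0. Pool levels were taken after a further Aquantile step, and they can be compared between pools for 1 probe, not between probes. A probe was above background where its signal was over the median plus 3 median absolute deviations of 153 negative control spots, and it was kept if above it on at least 4 arrays in either RNA (32931 of 43794). That threshold follows an earlier analysis of these data.

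The labels do not say which arrays share extracts. Of 24 pairings of opposite orientation, the one with the highest summed correlation of deviations was used (0.555, 0.502, 0.139 and 0.378 for swap pairs 1 to 4, against -0.343 to 0.0498 for the 12 other pairs). Deviations were taken from the mean of each orientation, so high values for the chosen pairs lower the others. The gap was thus partly fixed in advance. Each swap pair also lay within 1 slide set, and the part of slide in these correlations was not tested. Swap pair 3 was the least certain. Ratios were tested against 0 with lmFit and eBayes, n = 4, with Benjamini-Hochberg adjustment over all kept probes at 0.05. The procedure was checked on simulated data with less noise between the arrays of a swap pair than in these data. That check therefore cannot show how certain the pairing is here.

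The 9 genes, gene lists and marker lists were chosen with earlier results of these data known. The genes named are all probes of the 9 genes, the up to 3 other genes of smallest p in each list, SREBF1, SCAP and INSIG2, and the 5 genes most like the mean pattern. Symbols come from the platform annotation, which is old: 21790 probes had 1 symbol, 0 several and 22004 none; of 15227 symbols 14139 matched a RefSeq symbol and 1088 a synonym (assembly ARS-UCD2.0). No coordinates or sequences are given. A gene with several probes is represented in lists by its brightest kept probe. Intensity over background and the 4 pools per treatment limit the precision.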

Additional observations from a re-analysis of the deposited data

Results flagged for a closer look

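In 5 of 54 results tested, 1 of the 4 swap pairs lay far from the other three, where chance gives about 2.7; none was a probe of the 9 genes. These were LBR in swap pair 4 (log2 ratio 0.0827), NUS1 in swap pair 2 (0.0800), FNTA in swap pair 4 (0.42), ME1 in swap pair 3 (0.56) and FADS2 in swap pair 4 (-0.87).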

How the results depend on the processing

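None of the 19 probes of the 9 genes was called under any of the 18 alternatives, and their median ratio lay between -0.16 and -0.04. Of 337 values 312 kept their sign, and 7 of the 19 probes and 21 of 27 other genes kept it throughout. Over all probes, 930 were called with 8 single arrays and a dye term. With the swap pair as a random block 319 were called, and with the slide as a random block 192. These fits use 8 arrays in place of 4 swap pair means. With all other alternatives 0 were called at an adjusted p under 0.05 (limma). At an unadjusted p under 0.05 there were 2495 of 16520 probes when signal on all 8 arrays was required. There were 5226 of 43794 without the filter, and 2991 to 5493 of 32931 with the others. With single arrays NPC1, VLDLR, LIPA and LPCAT3 also passed (adjusted p = 0.0485, 0.041, 0.0339 and 0.0231), and none did with the swap pair as block (0.131, 0.0889, 0.0591 and 0.0555) or the slide as block (0.142, 0.123, 0.104 and 0.0618). The median of the uptake and trafficking list was 0.0396 with median centring and 0.0488 without the filter, and that of the LXR list -0.21 when signal on all 8 arrays was required. Without 1 swap pair in turn the uptake list was at 0.0714 to 0.167.

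Signs turned in some alternatives. With median centring FDPS EMBV3_00234 was at -0.00495, MVD at 0.005295 and INSIG2 at -0.0113. With scaled ratios HMGCS1 EMBV3_28348 was at -0.00495 and FDFT1 EMBV3_23196 at -0.00743, and EMBV3_23196 was at -0.00338 in the authors' deposited table. With the slide as a random block SQLE was at 0.00718. On slide 26 alone HMGCS1 EMBV3_28348 was at -0.0719, IDI1 at -0.0845, FDFT1 EMBV3_14929 at 0.02065, FDFT1 EMBV3_23196 at -0.0245, SREBF2 EMBV3_37027 at 0.138, PMVK at -0.0212, FADS2 at 0.00714 and INSIG2 at -0.00281. On slides 78 and 79 alone FDPS EMBV3_20910 was at 0.0339, SQLE at 0.223, INSIG1 EMBV3_36644 at 0.126 and MVD at 0.0166. With the mean over all probes of a gene NCEH1 was at 0.0170.

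Without 1 swap pair in turn the ranges of genes and probes that crossed 0 were -0.178 to 0.059 for SQLE, -0.229 to 0.0869 for SREBF2 EMBV3_37027, -0.0271 to 0.0391 for FDFT1 EMBV3_23196, -0.227 to 0.0374 for FDFT1 EMBV3_14929, -0.263 to 0.0277 for INSIG1 EMBV3_36644, -0.212 to 0.05585 for INSIG1 EMBV3_18281, -0.0114 to 0.205 for DHCR7, -0.0317 to 0.05996 for HMGCS1 EMBV3_28348, -0.175 to 0.0015 for HMGCS1 EMBV3_24024, -0.0935 to 0.003055 for MVD, -0.187 to 0.031 for ACAT2 and -0.292 to 0.0208 for FADS2. List medians crossed 0 for the mevalonate branch (-0.0435 to 0.0449), SREBP control (-0.0585 to 0.0600) and esterification and oxidation (-0.125 to 0.000244). SREBF2 EMBV3_05613 stayed at -0.49 to -0.28 (adjusted p = 0.3 to 0.606). The causes were not tested. The block correlations were 0.304 for the swap pair and 0.179 for the slide.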
